A study of Mus musculus with 6 samples.

Results

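Transcription factors of the osteoblast lineage were compared between mesenchymal stromal cells of Zeb1Prx1 mice and of WT mice. The set held 8 genes, Runx1, Runx2, Sp7, Dlx3, Dlx5, Dlx6, Msx1 and Msx2, and its members were the rows of the deposited gene table that carry these symbols. All 8 were found, among 54532 genes in all. Zeb1Prx1 mice were Prx1-Cre+; ROSA-YFP; Zeb1fl/fl, so that Cre from the Prx1 limb-mesenchyme promoter recombines Zeb1, and WT mice were Prx1-Cre+; ROSA-YFP; Zeb1wt/wt, so that both groups carried Cre and the reporter. Cells grew out of collagenase-treated femur and tibia chips (compact bone), were untreated and were sorted on reporter fluorescence, and each genotype had 3 RNA-seq libraries. The labels give neither the age nor the sex of the mice, nor whether replicates are separate mice or cultures. P-values therefore measure only how far these libraries differ from each other, a spread that may be technical. Zeb1 is a repressor with zinc fingers that bind E-box sequences, and the question set by the series is what it does as chondrocytes and osteoblasts differentiate.

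Runx2 commits mesenchymal precursors to the osteoblast lineage, and Sp7 (osterix) is needed after it for precursors to become bone-forming cells. Mice without either gene make no bone. Dlx and Msx proteins are homeodomain factors that pattern limb and skull and act on Runx2 and on bone matrix genes in osteoblast precursors, where Dlx proteins mostly activate and Msx proteins mostly repress. Runx1, a relative of Runx2, is best known from blood formation and is also expressed in skeletal progenitors.

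Levels are FPKM, the fragments of a gene scaled to its length and to the library, as the authors computed them. They can be compared between genes of like length. Between genes of unlike length, comparison is limited in Zeb1Prx1 replicate 2, which had a shift with gene length. The libraries held 14724357 to 18354894 assigned fragments. Zeb1, the targeted gene, had 1.92, 1.59 and 2.84 FPKM in the Zeb1Prx1 libraries, against 6.61, 10.3 and 7.12 FPKM in the WT libraries. Prrx1, the gene whose promoter drives Cre, had 18.1 to 30.5 FPKM over the 6 libraries. Macrophage genes were abundant in all of them, with Lyz2 between 7034 and 16368 FPKM, and none of 25 macrophage markers was at 0. Zeb1Prx1 replicate 2 stood apart: relative to the mean of the other libraries, its 1935 genes of 8000 bases or more had a median log2 difference of -0.44 and its 1896 genes under 1500 bases one of 0.51, where the other libraries lay between -0.06 and 0.19 and between -0.20 and 0.11. Xist, expressed from the inactive X of females, had 1.47, 0.00309 and 12.6 FPKM in Zeb1Prx1 libraries and 26.8, 40.4 and 32.9 in WT libraries, while the Y-linked Ddx3y had 21.9, 20.9 and 14.6 against 8.19, 4.45 and 8.004. The part of these differences in the values of the 8 factors was not tested. Xist and Ddx3y did not overlap between genotypes, so sex makeup cannot be told apart from genotype in these libraries.

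Dlx5 was the one factor whose Zeb1Prx1 libraries all lay above its WT libraries. Of all genes tested below, 12.6% did the same. Sp7, Runx2 and Dlx6 were higher than in every WT library in Zeb1Prx1 replicates 1 and 2, and in replicate 3 they were within or below the WT range. Runx1 was lower than in every WT library in those same replicates and not in replicate 3. Msx1 was low and highest in Zeb1Prx1 replicate 3, Msx2 was about as high in both genotypes, and Dlx3 was close to 0 throughout. Differences were tested with limma, a linear model with moderated variances fitted across all genes, on log2(FPKM + 1), with a threshold of 0.05 on the p-value after adjustment across the whole set of tested genes. Genes entered the test with at least 1 FPKM in at least 3 of 6 libraries, which 12534 genes and 4 of the 8 factors did (Runx1, Runx2, Sp7 and Dlx5). None of the 4 passed at the adjusted threshold, beside 0 of 12534 genes (0%). At an unadjusted p under 0.05, limma counted 1 of the 4, Dlx5, beside 1897 of all tested genes (15.1%), and limma with voom on the fragment numbers also called 0 genes, with 1931 at an unadjusted p under 0.05. In bulk RNA, fewer cells of a type and less RNA per cell cannot be told apart, which holds for every level given here.

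**Figure D1:**
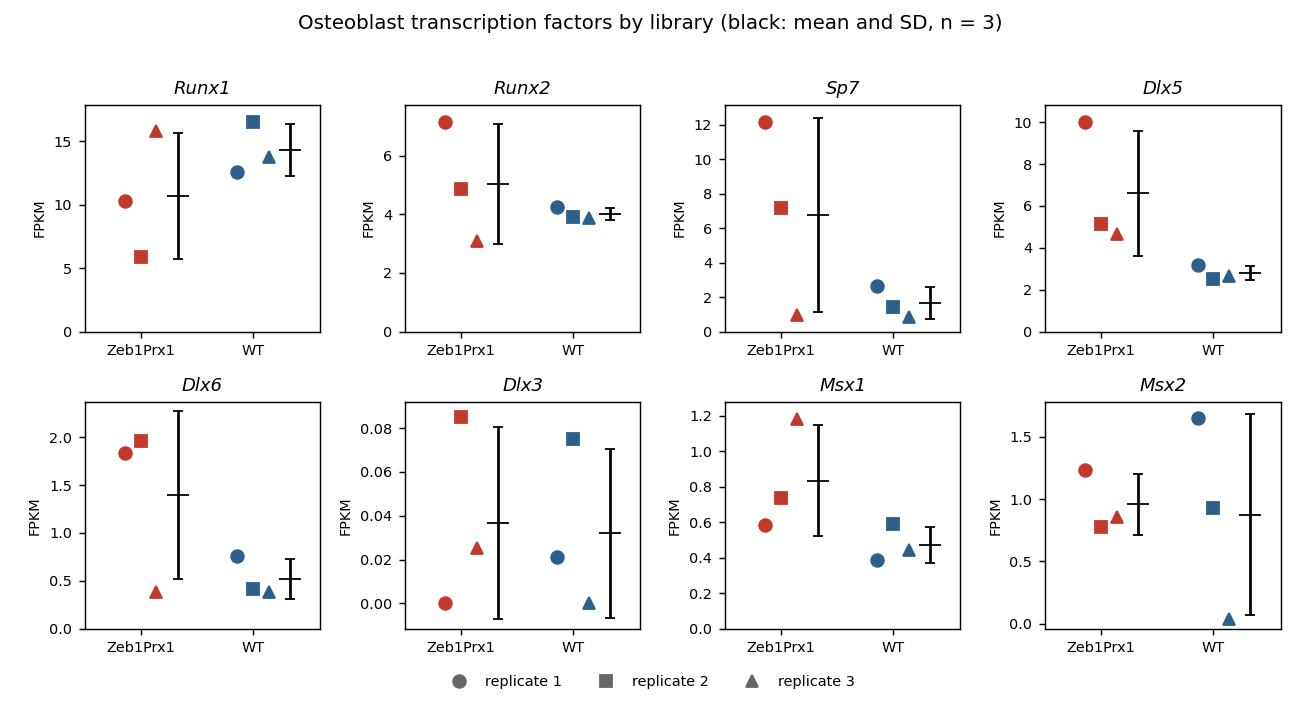
FPKM of the 8 factors in each library, Zeb1Prx1 in red and WT in blue, with marker shape giving the replicate number and the black bar the mean and SD of 3 libraries. Dlx5 was above the highest WT value of 3.16 FPKM in each Zeb1Prx1 library (lowest 4.66), while Sp7, Runx2 and Dlx6 were high in Zeb1Prx1 replicates 1 and 2 and not in replicate 3.

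Runx1 and Runx2 each have a distal and a proximal promoter. RefSeq promoter windows (GRCm38.p6, 250 bases before to 50 after a gene's start) were found for 4 of the 8 factors, Runx1, Runx2, Msx1 and Msx2, with 5 windows in all. The Runx1 upstream window (chr16:92826025-92826324, minus strand) and the Runx2 window (chr17:44814578-44814877, minus strand) are shown because they share a stretch and because the first holds the E-box that Zeb1 binds. Capitals mark CACCTG or CAGGTG, the Zeb1 E-box on either strand, and TGTGGT or ACCACA, the Runt site on either strand.
Runx1 upstream window: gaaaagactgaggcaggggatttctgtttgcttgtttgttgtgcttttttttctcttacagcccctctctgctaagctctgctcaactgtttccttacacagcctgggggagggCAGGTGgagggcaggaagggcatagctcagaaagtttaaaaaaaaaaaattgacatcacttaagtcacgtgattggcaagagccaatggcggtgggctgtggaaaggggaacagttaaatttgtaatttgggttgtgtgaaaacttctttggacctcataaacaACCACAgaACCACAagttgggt
Runx2 window: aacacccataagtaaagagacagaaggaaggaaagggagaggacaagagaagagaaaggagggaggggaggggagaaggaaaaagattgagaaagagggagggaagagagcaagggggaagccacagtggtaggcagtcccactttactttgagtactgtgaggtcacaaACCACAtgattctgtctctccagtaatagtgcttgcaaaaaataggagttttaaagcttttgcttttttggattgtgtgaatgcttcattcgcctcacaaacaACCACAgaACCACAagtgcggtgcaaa
The E-box CAGGTG began 136 bases before the Runx1 start. Runt sites ACCACA began at bases 29 and 37 after the Runx1 start, and at 80 bases before and bases 24 and 32 after the Runx2 start. The pair of sites after the start lay in a run of 22 bases identical in both windows, while every other pair of the 5 windows shared at most 10 bases in a row. Of 32851 promoter windows of the same length, 20.2% held the E-box and 16.8% the Runt site. The other Runx1 window held neither, nor the homeodomain letters TAATTA or TAATTG on either strand. These matches describe letters, and no binding was measured.

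Runx2 had 7.16, 4.86 and 3.08 FPKM in Zeb1Prx1 libraries, against 4.25, 3.92 and 3.88 FPKM in WT libraries. Zeb1Prx1 replicates 1 and 2 lay above all WT libraries and replicate 3 lay below all of them, so the genotypes overlapped. Runx2 is 8837 bases long in the table, in the length class whose median was low in replicate 2. The part of this shift in its value there was not tested. The means were 5.03 ± 2.05 FPKM in Zeb1Prx1 and 4.02 ± 0.205 FPKM in WT (SD, n = 3 each), a 1.25-fold ratio. On the log2 scale Runx2 differed by 0.21 (SE 0.25, 95% interval -0.38 to 0.80, limma adjusted p = 0.679). Without Zeb1Prx1 replicate 1 the difference was -0.04, so 1 library sets its direction. Runx2 (ENSMUSG00000039153, chr17:44495987-44814797, mm10, minus strand) shares 519 exon bases with the antisense Runx2os1, and the counting tool's use of strand is not given in the sources used here. Runx2os1 held 5, 4 and 10 fragments in Zeb1Prx1 libraries and 3, 4 and 0 in WT libraries, against 416 to 1017 fragments for Runx2. Of the other genes inside or across the Runx2 locus, Supt3, a subunit of a histone acetyltransferase complex, had 1.54 to 2.30 FPKM and no shared exon base. Runx2os2 held 0 to 10 fragments, and Runx2os3 and n-R5s27 held 0.

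Runx1 was the most abundant of the 8 factors in all WT libraries. It had 10.3, 5.90 and 15.8 FPKM in Zeb1Prx1 libraries, against 12.6, 16.6 and 13.8 FPKM in WT libraries. Replicates 1 and 2 of Zeb1Prx1 lay below every WT library, while replicate 3 lay within the WT range. The means were 10.7 ± 4.99 FPKM in Zeb1Prx1 and 14.3 ± 2.05 FPKM in WT (SD, n = 3 each), a 0.746-fold ratio and a log2 difference of -0.48 (SE 0.32, 95% interval -1.23 to 0.28, limma adjusted p = 0.463). Without Zeb1Prx1 replicate 2 the ratio was 0.913, and without replicate 3 it was 0.566. Replicate 2 is the library in which long genes were low, and Runx1 (ENSMUSG00000022952, chr16:92601466-92826149, mm10, minus strand) is 12025 bases long in the table. Runx1 is also a gene of blood cells, and the median of 25 macrophage markers was 164, 133 and 122.6 FPKM in Zeb1Prx1 libraries, against 215, 230 and 250 FPKM in WT libraries. Their summed FPKM overlapped between genotypes, with 12022, 23960 and 13954 in Zeb1Prx1 libraries and 14602, 17716 and 16594 in WT libraries. It was highest in Zeb1Prx1 replicate 2, the library with the least Runx1. Most of the sum there was 1 gene, Lyz2, at 16368 FPKM. Lyz2 is 1316 bases long in the table, and short genes were high in that library. Of these markers 21 lay lower in Zeb1Prx1 and 4 higher, 7 were at an unadjusted limma p under 0.05 in the lower direction (6.98% of all tested genes were), and 0 passed. Adgre1, the F4/80 antigen, had 164, 119 and 117 FPKM in Zeb1Prx1 and 215, 230 and 250 FPKM in WT, and the leukocyte antigen gene Ptprc had 15.4, 13.97 and 9.12 against 19.2, 19.8 and 20.7 FPKM. Within Zeb1Prx1, 13 of the 25 markers were lowest in replicate 3, the library with the most Runx1, 10 in replicate 1 and 2 in replicate 2. Of all tested genes, 28.4%, 32.8% and 38.8% were lowest in these libraries. The part of library makeup and of macrophage RNA in the Runx1 values was not tested. The antisense gene Gm26626, which shares 106 exon bases with Runx1, held 0 to 7 fragments, against 1278 to 3065 for Runx1.

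The third Runt factor, Runx3, had 8.18, 3.28 and 1.69 FPKM in Zeb1Prx1 libraries and 6.48, 3.90 and 3.64 FPKM in WT libraries, and Cbfb, the partner through which Runx proteins bind DNA well, had 36.5, 43.0 and 30.3 FPKM against 43.5, 32.6 and 38.6. Both overlapped between genotypes. Runx2 made up 27.9%, 34.6% and 15.0% of the summed FPKM of the Runx genes in Zeb1Prx1 libraries, against 18.2%, 16.1% and 18.2% in WT libraries. The share was highest in Zeb1Prx1 replicates 1 and 2 and lowest in replicate 3. Runx1, Runx2 and Runx3 are 12025, 8837 and 5003 bases long in the table, and long genes were low in replicate 2. The part of gene length in this share was not tested.

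Sp7 had the largest standard error of the 4 tested factors. It had 12.2, 7.20 and 0.944 FPKM in Zeb1Prx1 libraries, against 2.65, 1.42 and 0.843 FPKM in WT libraries, from 666, 441 and 49 fragments against 165, 74 and 44. Replicates 1 and 2 of Zeb1Prx1 were far above every WT library and replicate 3 was within the WT range. The means were 6.78 ± 5.64 FPKM in Zeb1Prx1 and 1.64 ± 0.925 FPKM in WT (SD, n = 3 each), a 4.14-fold ratio that was 5.92 without Zeb1Prx1 replicate 3 and 2.49 without replicate 1. The log2 difference was 1.23 (SE 0.68, 95% interval -0.37 to 2.84, limma adjusted p = 0.396). Sp7 (ENSMUSG00000060284, chr15:102356606-102367182, mm10, minus strand) is 3398 bases long in the table and overlaps no other gene there. Relative to Runx2, Sp7 was at 1.70, 1.48 and 0.306 in Zeb1Prx1 libraries and at 0.624, 0.362 and 0.217 in WT libraries. Sp7 thus exceeded Runx2 in Zeb1Prx1 replicates 1 and 2 and in no other library. Runx2 is 8837 bases long in the table, and long genes were low in replicate 2 of Zeb1Prx1. The part of gene length in this ratio was not tested.

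Of the zinc-finger relatives of Sp7, Sp1 and Sp3 are expressed in most cells. Sp1 had 11.1, 5.69 and 8.73 FPKM in Zeb1Prx1 libraries and 11.4, 14.4 and 12.4 FPKM in WT libraries, Sp3 had 17.0, 14.1 and 17.3 against 17.5, 17.8 and 19.1, and Sp2 had 5.91, 3.27 and 4.68 against 6.19, 6.69 and 6.81. These 3 did not overlap between genotypes and lay lower in Zeb1Prx1, as 11.8% of all tested genes did. Sp4, at 1.37, 0.596 and 1.14 against 1.15, 1.89 and 1.59 FPKM, did overlap. Among the 15 listed relatives of the factors, 8 were tested, 8 had a log2 difference below 0 (median -0.20, all tested genes 0.02) and 0 passed. One of them, Sp1, had an unadjusted limma p under 0.05, where 6.98% of all tested genes were on that side. Within Zeb1Prx1, 5 of the 8 tested relatives were lowest in replicate 2 and 3 in replicate 3. Of all tested genes, 38.8% and 28.4% were lowest in these libraries. Long genes were low in replicate 2, and Sp1 is 8262 bases long in the table. The part of gene length in these differences was not tested.

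Dlx5 had 10.04, 5.12 and 4.66 FPKM in Zeb1Prx1 libraries, against 3.16, 2.53 and 2.68 FPKM in WT libraries. Each Zeb1Prx1 library was above each WT library, with replicate 1 well above the others. The means were 6.61 ± 2.98 FPKM in Zeb1Prx1 and 2.79 ± 0.332 FPKM in WT (SD, n = 3 each), a 2.37-fold ratio that was 1.75 without Zeb1Prx1 replicate 1. The log2 difference was 0.94 (SE 0.26, 95% interval 0.31 to 1.57), with an unadjusted limma p of 0.0094 and an adjusted p of 0.273. Dlx5 was therefore 1 of the 4 tested factors that did not overlap in this direction, beside 12.6% of all tested genes, and 0 of 4 did so with lower values, beside 11.8%. At an unadjusted p under 0.05 and higher in Zeb1Prx1, limma counted 8.15% of all tested genes. Over the 14 alternative settings the Dlx5 difference lay between 0.64 and 1.13 and the adjusted p between 0.0758 and 0.540. Dlx5 (ENSMUSG00000029755, chr6:6877805-6882085, mm10, minus strand) is 2263 bases long in the table, and its 161 to 365 fragments per Zeb1Prx1 library stood against 88 to 131 per WT library.

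**Figure D2:**
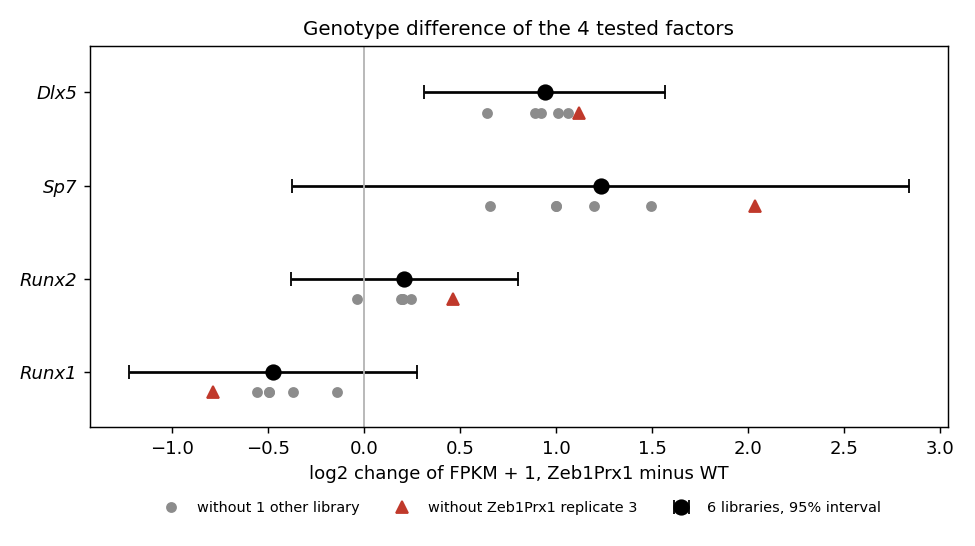
Difference of log2(FPKM + 1), Zeb1Prx1 minus WT, of the 4 tested factors, with the 95% interval of the fit on 6 libraries in black and the values without 1 library under each. The Dlx5 interval ran from 0.31 to 1.57 and those of Sp7, Runx2 and Runx1 included 0, and leaving out Zeb1Prx1 replicate 3 (red triangles) moved Sp7 to 2.04.

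Dlx6, the neighbour of Dlx5 on chromosome 6, is transcribed towards it from the opposite strand. It had 1.83, 1.96 and 0.386 FPKM in Zeb1Prx1 libraries, against 0.759, 0.411 and 0.384 FPKM in WT libraries. Replicates 1 and 2 of Zeb1Prx1 were above every WT library and replicate 3 was at the WT level. The means were 1.39 ± 0.875 FPKM in Zeb1Prx1 and 0.518 ± 0.209 FPKM in WT (SD, n = 3 each), a 2.69-fold ratio that was 3.67 without Zeb1Prx1 replicate 3. The gene was under the filter of the test, with 70, 84 and 14 fragments in Zeb1Prx1 libraries and 33, 15 and 14 in WT libraries. Its CPM, from fragments summed over the libraries of a genotype and divided by their summed totals, was 2.58 times as high in Zeb1Prx1 as in WT (95% exact interval 1.92 to 3.52, counting error only, which leaves out the spread between libraries). Dlx6os1, the Evf2 antisense transcript of the locus, had 0.373, 0.397 and 0.127 FPKM in Zeb1Prx1 libraries and 0.116, 0.0503 and 0.0629 FPKM in WT libraries. It shared no exon base with Dlx6 (ENSMUSG00000029754, chr6:6863334-6868568, mm10, plus strand), and, from 4 to 37 fragments, its order of libraries within Zeb1Prx1 was that of Dlx6. Dlx6os2, which shares 104 exon bases with Dlx6, was at 0 in all libraries.

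Dlx5 exceeded Dlx6 5.47-, 2.61- and 12.1-fold in Zeb1Prx1 libraries and 4.17-, 6.16- and 6.97-fold in WT libraries, so the ratio overlapped between genotypes and was highest in Zeb1Prx1 replicate 3. Relative to Runx2, Dlx5 was at 1.40, 1.05 and 1.51 in Zeb1Prx1 libraries, against 0.744, 0.646 and 0.689 in WT libraries. Dlx5 was above Runx2 in every Zeb1Prx1 library and below it in every WT library. Of the 6 ratios and shares computed between factors, Dlx5 over Runx2 was the one in which the genotypes did not overlap. Its lowest Zeb1Prx1 value, 1.05, was that of replicate 2, the library in which long genes were low. Runx2 is 8837 bases long in the table and Dlx5 2263. The part of gene length in this ratio was not tested.

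**Figure D3:**
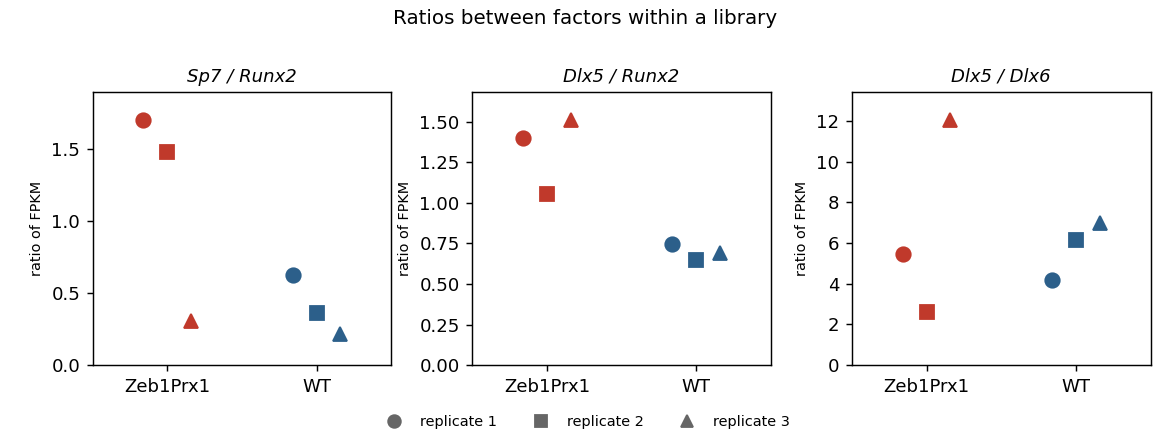
Ratios of FPKM between factors within each library, Zeb1Prx1 in red and WT in blue, with marker shape giving the replicate number. Dlx5 over Runx2 was 1.05 or more in Zeb1Prx1 and at most 0.744 in WT, while Sp7 over Runx2 was 1.70 and 1.48 in Zeb1Prx1 replicates 1 and 2 and 0.306 in replicate 3.

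Dlx3, a factor of skin, tooth and bone, was barely detected. It had 0, 4 and 1 fragments in Zeb1Prx1 libraries (0, 0.0851 and 0.0251 FPKM) and 1, 3 and 0 fragments in WT libraries (0.0210, 0.0748 and 0 FPKM). A count of 0 allows up to 3 fragments, which is 0.163 to 0.204 CPM in these libraries. The ratio of summed CPM, 1.19, had an exact interval of 0.257 to 6.01, so a difference was not detectable at this depth. Of the other Dlx genes, Dlx2 had 1.05 to 2.41 FPKM with overlapping genotypes, and Dlx1 and Dlx4 were under 1 FPKM in every library. Dlx3 is ENSMUSG00000001510 (chr11:95120119-95125296, mm10, plus strand).

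Msx1, a homeodomain repressor that keeps limb and craniofacial precursors from differentiating, was low in all libraries. Its RefSeq window (chr5:37824536-37824835, GRCm38.p6, minus strand) is shown because it is the other member window with a Zeb1 E-box, marked by capitals.
Msx1 window: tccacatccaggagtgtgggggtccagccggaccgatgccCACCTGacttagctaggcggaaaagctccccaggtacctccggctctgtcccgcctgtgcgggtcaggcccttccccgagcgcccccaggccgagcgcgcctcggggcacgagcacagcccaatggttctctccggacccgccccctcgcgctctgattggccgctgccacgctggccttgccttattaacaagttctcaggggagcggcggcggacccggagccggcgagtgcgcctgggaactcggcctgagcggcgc
The letters CACCTG began 210 bases before the Msx1 start, and neither the Runt site nor the homeodomain letters were in the window. Msx1 had 0.583, 0.734 and 1.18 FPKM in Zeb1Prx1 libraries, against 0.388, 0.588 and 0.442 FPKM in WT libraries, from 29, 41 and 56 fragments against 22, 28 and 21. The genotypes overlapped through Zeb1Prx1 replicate 1 and WT replicate 2, which were nearly equal. The means were 0.834 ± 0.313 FPKM in Zeb1Prx1 and 0.473 ± 0.103 FPKM in WT (SD, n = 3 each), a 1.76-fold ratio. The summed CPM was 1.69 times as high in Zeb1Prx1 (95% exact interval 1.26 to 2.30, counting error only). Msx1 (ENSMUSG00000048450, chr5:37820485-37824583, mm10, minus strand) was under the filter and has no test.

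Msx2, which acts in skull growth and limb patterning, had 1.23, 0.778 and 0.859 FPKM in Zeb1Prx1 libraries and 1.65, 0.932 and 0.0397 FPKM in WT libraries. WT replicate 3 held 2 fragments of Msx2, where the other 5 libraries held 43 to 99. The means were 0.957 ± 0.243 FPKM in Zeb1Prx1 and 0.874 ± 0.806 FPKM in WT (SD, n = 3 each), a 1.10-fold ratio, which was 0.741 without WT replicate 3 and 1.97 without WT replicate 1. The ratio of summed CPM was 0.992 (95% exact interval 0.787 to 1.25, counting error only). The RefSeq window of Msx2 (ENSMUSG00000021469, chr13:53466884-53473074, mm10, minus strand) held TAATTA beginning 187 bases before the start, as 5.29% of all windows do, and no E-box or Runt site. The letters TAATTG, in 2628 of all windows on either strand, were in none of the 5 windows. Msx3 was at 0 in all libraries.

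In order of mean FPKM the factors ran Runx1, Sp7, Dlx5, Runx2, Dlx6, Msx2, Msx1 and Dlx3 in Zeb1Prx1, and Runx1, Runx2, Dlx5, Sp7, Msx2, Dlx6, Msx1 and Dlx3 in WT. Neighbours in the Zeb1Prx1 order overlapped in their ranges, except Runx2 with Dlx6 and Msx1 with Dlx3. In the WT order Runx1 with Runx2, Runx2 with Dlx5, and Msx1 with Dlx3 did not overlap, and the other neighbours did. Sp7 was the highest factor in Zeb1Prx1 replicates 1 and 2, and Runx1 was the highest in replicate 3 and in all WT libraries. Runx1 is 12025 bases long in the table and Sp7 3398, and long genes were low in replicate 2 of Zeb1Prx1. The part of gene length in this order was not tested. The sum of the 8 factors without Runx1 was 33.04, 20.7 and 11.1 FPKM in Zeb1Prx1 libraries and 12.9, 9.87 and 8.27 FPKM in WT libraries. Replicate 3 lay within the WT range by this sum.

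Zeb1Prx1 replicate 3 was the lowest of the Zeb1Prx1 libraries for Runx2, Sp7, Dlx5 and Dlx6, including 3 of the 4 tested factors, where it was lowest for 28.4% of all tested genes. Replicate 1 was the highest for Runx2, Sp7, Dlx5 and Msx2. Without replicate 3, all 4 tested factors separated the genotypes: Runx2, Sp7 and Dlx5 lay higher in Zeb1Prx1, beside 15.6% of 12247 genes, and Runx1 lay lower, beside 14.7%. In this fit the log2 difference was 2.04 for Sp7 (SE 0.35, limma adjusted p = 0.356), 1.12 for Dlx5, 0.46 for Runx2 and -0.79 for Runx1, the last 3 with a limma adjusted p of 0.482. Leaving out this library was chosen knowing these values, so its counts are a description.

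Replicate 3 was also the library richest in cartilage genes. Col2a1, the main collagen of cartilage, had 383, 60.0 and 1175 FPKM in Zeb1Prx1 libraries and 5.32, 1.17 and 4.38 FPKM in WT libraries, and the proteoglycan Acan had 21.8, 1.28 and 121 FPKM against 0, 0.906 and 0.0610. Sox9, which directs chondrocyte fate, had 15.0, 6.27 and 40.7 FPKM in Zeb1Prx1 and 4.19, 4.33 and 5.45 FPKM in WT. Of 22 chondrocyte markers 10 were tested, and all 10 were highest in replicate 3 among the Zeb1Prx1 libraries, beside 26.2% of all tested genes. The summed FPKM over all 22 was 713, 224 and 2956 in Zeb1Prx1 and 46.5, 376 and 192 in WT. All 10 had a difference above 0 (median 2.14), 6 of them at an unadjusted limma p under 0.05 (8.15% of all tested genes were, on that side), and 0 passed at the adjusted threshold. Acan and Col11a2, both among the 6, reached 1 FPKM only in the 3 Zeb1Prx1 libraries. They entered the test through that genotype, so their direction was set beforehand and these counts are a description. Within Zeb1Prx1, the library with the most cartilage RNA had the least Sp7, Runx2, Dlx5 and Dlx6. The library with the least cartilage RNA, replicate 2, had intermediate Runx2, Sp7 and Dlx5 and the most Dlx6. The part of cartilage cells in the levels of the factors was not tested.

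**Figure D4:**
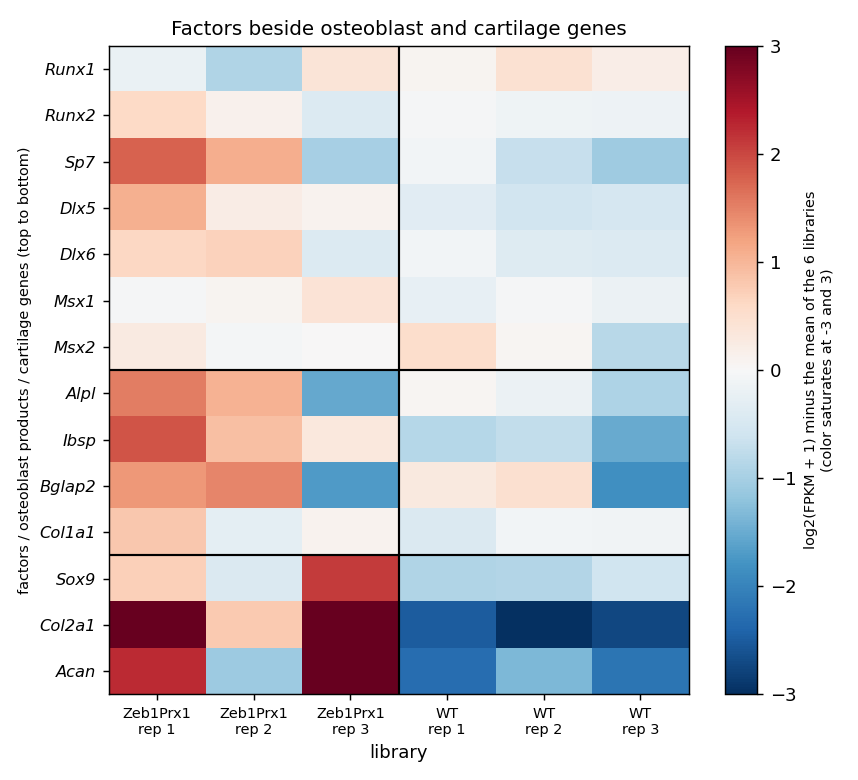
log2(FPKM + 1) minus the mean of the 6 libraries for 7 factors (Dlx3 is left out), 4 osteoblast products and 3 cartilage genes, by library, with red above and blue below the mean. Sp7 and Dlx6 were red in Zeb1Prx1 replicates 1 and 2 and blue in replicate 3, where Sox9, Col2a1 and Acan were highest. The osteoblast products, chosen after their values were seen, differed among themselves. Of 25 tested products, 16 were lowest of the Zeb1Prx1 libraries in replicate 2, beside 38.8% of all tested genes.

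Genes of the osteoblast product list were set beside the factors. Alpl, the alkaline phosphatase that starts mineralization, had 75.0, 52.6 and 7.92 FPKM in Zeb1Prx1 libraries and 26.2, 21.9 and 12.7 FPKM in WT libraries. Bglap2, 1 of the close osteocalcin copies whose fragments may be divided between them, had 10.3, 11.8 and 0.417 FPKM against 4.64, 5.39 and 0.277. Both were high in Zeb1Prx1 replicates 1 and 2 and low in replicate 3, as Sp7 was, and both were chosen after their values were seen. Most of the list did not do so: of its 25 tested genes, 16 were lowest of the Zeb1Prx1 libraries in replicate 2, 8 in replicate 3 and 1 in replicate 1. Of all tested genes, 38.8%, 28.4% and 32.8% were lowest in these libraries. Replicate 2 is also the library in which long genes were low. Ibsp, the matrix sialoprotein of mineralizing bone, had 42.4, 20.98 and 13.8 FPKM in Zeb1Prx1 libraries and 5.52, 6.13 and 3.15 FPKM in WT libraries. Omd, a small proteoglycan of bone, had 30.7, 9.30 and 33.5 FPKM against 4.30, 3.85 and 3.65, and these libraries too did not overlap. Tnfrsf11b, the decoy receptor osteoprotegerin, had 48.7, 28.5 and 224 FPKM against 6.51, 16.9 and 5.92. The collagenase Mmp13, which hypertrophic chondrocytes also make, had 400, 337 and 414 FPKM against 95.7, 273 and 69.4. Of 40 products 25 were tested, 20 had a difference above 0 and 5 below (median 0.71), 7 had an unadjusted limma p under 0.05 in the higher direction and 0 in the lower (8.15% and 6.98% of all tested genes did), and 0 passed. The osteocyte products Sost and Mepe were at 0 in all libraries.

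Among 50 partners and regulators of Runx2 and of osteoblasts, 44 were tested, 26 lay above 0 and 18 below (median 0.05), 6 were at an unadjusted limma p under 0.05 on the higher side and 1 on the lower (8.15% and 6.98% of all tested genes were), and 0 passed. Atf4, which works with Runx2 on the osteocalcin gene, had 140, 181 and 135 FPKM in Zeb1Prx1 libraries and 90.6, 93.9 and 88.9 FPKM in WT libraries. The stress-responsive Nupr1 had 36.9, 45.0 and 62.0 FPKM against 19.4, 30.8 and 13.9, and the hindlimb factor Pitx1 had 11.6, 20.1 and 44.6 FPKM against 7.59, 8.08 and 3.58. Nfatc2, a calcineurin-regulated factor also of immune cells, had 5.09, 1.51 and 2.51 FPKM against 6.70, 7.84 and 6.57. These 4 did not overlap between genotypes, as 7 of the 44 did on the higher side and 2 on the lower, beside 12.6% and 11.8% of all tested genes. Twist1, a bHLH factor of limb mesenchyme, had 26.3, 28.0 and 40.6 FPKM in Zeb1Prx1 libraries and 18.5, 16.6 and 25.2 FPKM in WT libraries, and did not overlap between genotypes.

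The genes whose log2(FPKM + 1) followed a factor most closely over the 6 libraries were named from 7256 protein-coding genes whose mean reached 5 FPKM. For Runx2 they were Col5a1, a collagen of bone and stroma (Pearson r 0.988, Spearman rho 0.943), and Pgam5 (0.961 and 0.943). Col5a1 had 262.8, 164 and 107 FPKM in Zeb1Prx1 libraries and 154, 138 and 150 FPKM in WT libraries, and was thus highest and lowest in the same libraries as Runx2. For Sp7 they were Eif3c, a subunit of a translation initiation factor (r 0.985, rho 1), and the small GTPase Rhoq (0.975 and 0.943). Eif3c had 119, 114 and 95.5 FPKM in Zeb1Prx1 libraries and 100.1, 96.4 and 89.8 FPKM in WT libraries, a far narrower range than that of Sp7. For Dlx5 they were the pantetheinase gene Vnn1 (r 0.989, rho 0.886), with 16.4, 4.57 and 5.77 FPKM against 2.35, 1.56 and 1.48, and the Wnt receptor Fzd5 (0.974 and 0.771). For Runx1 they were Sec14l1 (r 0.988, rho 1) and Pcyox1 (0.980 and 0.943). These values are descriptions over 6 libraries that share 2 genotypes and, in replicate 2 of Zeb1Prx1, a shift with gene length.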

How the data were processed

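The authors deposited 1 gene table with FPKM in 6 libraries, beside gene names, lengths and coordinates. Reads were 150 bp paired-end, per the labels' protocols, and per the submitters' processing notes the build was mm10. Which aligner and counter were used, and whether strand was, is not given in the sources used here. Coordinates and lengths of all 8 factors were identical to GENCODE M21. FPKM times gene length gave whole fragments for 127408 of 127408 non-zero values (relative tolerance 1e-06), and the total implied was 0.973 to 1.04 times the sum per library. The columns of other samples numbered 0.

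From these values, limma 3.58.1 (R 4.3.3) with an intensity trend was fitted to log2(FPKM + 1), with genotype as the only term and Benjamini-Hochberg adjustment over all tested genes. The scale understates changes of low genes. Fragment intervals are exact, at 95%. The test was checked on simulated data. Those libraries were drawn independently of each other and without a shift with gene length, so the check does not cover that shift. Alternatives were pseudocounts of 0.1 and 0.5, no filter, an equal FPKM sum, median-of-ratios scaling, the replicate block, voom on recovered fragments, library weights and leaving out each library.

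The members and lists were chosen with earlier results of these data known. Named were the members, Zeb1, overlapping genes, up to 4 genes per list with the smallest p, and the 2 likest genes per tested member. Genes named beyond this rule, such as Alpl, Bglap2, Sox9, Runx3, Cbfb, Dlx2, Prrx1, Lyz2, Xist and Ddx3y, were chosen after their values were seen. The symbol Taz in the regulator list is tafazzin in the table. Protein sequences were not used here.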

Additional observations from a re-analysis of the deposited data

How the results depend on the processing

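The number of the 8 factors called was 0 under all 14 alternatives. Dlx5 and Sp7 kept a positive difference and Runx1 a negative one in all 14. Their ranges on the log2 scale were 0.64 to 1.13, 0.33 to 2.04 and -0.79 to -0.05. The difference of Runx2 changed sign with library weights (-0.0764) and ran from -0.0361 without Zeb1Prx1 replicate 1 to 0.46 without Zeb1Prx1 replicate 3. Runx2 was lowest in Zeb1Prx1 replicate 3, the library with the largest weight. Why the libraries differed was not tested. Library weights, which gave Zeb1Prx1 replicate 3 a weight of 2.82 and replicate 2 one of 0.226, called 447 of all tested genes and counted 3866 at an unadjusted p under 0.05. Leaving out each library gave 0 to 1 genes called (1 without Zeb1Prx1 replicate 2), 1118 to 2821 genes at an unadjusted p under 0.05, and 1 to 4 factors not overlapping (4 without Zeb1Prx1 replicate 3).

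With the replicate block, 0 genes were called and 1347 had an unadjusted p under 0.05. Limma gave Sp7 an unadjusted p of 0.0249 and an adjusted p of 0.443. Deviations of same-numbered libraries from their group means correlated at 0.03, -0.41 and 0.08 across all tested genes. Sp7 and Runx2 were highest in replicate 1 and lowest in replicate 3 in both genotypes. With 3 libraries per genotype, these values cannot decide whether the numbers pair the samples. An equal FPKM sum moved the median difference of all genes from 0.02 to -0.12, with Dlx5 at 0.81, Sp7 at 1.12, Runx2 at 0.08 and Runx1 at -0.63. With a pseudocount of 0.1, the differences of mean log2 were 1.06 for Dlx6, 0.67 for Msx1 and 0.72 for Msx2, against 0.59, 0.31 and 0.16 with a pseudocount of 1. Depth limits Dlx3, with 5 fragments in Zeb1Prx1 and 4 in WT.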

Other observations

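The authors' annotation of transcription factor families places Dlx and Msx genes among 232 homeobox genes, of which 57 were tested. Their differences lay above 0 for 30 and below 0 for 27 (median 0.02, as for all tested genes), and limma called 0. At an unadjusted limma p under 0.05, 5 were on the higher side, Dlx5 among them, and 3 on the lower, beside 8.15% and 6.98% of all tested genes. By mean FPKM Dlx5 ranked 22 of the 57, and by unadjusted p it ranked 3, after Hoxa9 and Hoxb9. These genes were looked at after the values of the factors were known.

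Of the other marker lists, 17 of 20 skeletal stromal markers were tested, with 10 above 0 and 7 below. At an unadjusted limma p under 0.05, 1 (Twist1) was on the higher side and 4 were on the lower. Of all tested genes, 8.15% and 6.98% were on these sides. The stromal median was 19.5, 18.3 and 23.5 FPKM in Zeb1Prx1 libraries and 25.3, 30.4 and 23.4 FPKM in WT libraries. Grem1, a BMP antagonist, had 16.4, 16.5 and 15.99 FPKM in Zeb1Prx1 libraries and 71.0, 83.4 and 21.2 FPKM in WT libraries, and the integrin gene Itgav had 35.6, 27.9 and 25.03 FPKM against 56.9, 48.4 and 38.3. Of 20 epithelial markers 4 were tested. Their sum over all 20 was 27.8, 28.5 and 37.7 FPKM in Zeb1Prx1 libraries and 30.8, 7.04 and 4.71 FPKM in WT libraries. Sfn had 5.63, 5.81 and 5.85 FPKM against 4.03, 3.02 and 1.70, and Perp 6.06, 2.93 and 3.59 FPKM against 2.38, 1.27 and 0.4003. Krt19 had 1.21, 10.3 and 0.353 FPKM against 18.7, 0.631 and 1.09, and Spint1 had 1.75, 5.27 and 1.82 against 4.58, 1.67 and 0.965, and both overlapped between genotypes. Their part in the levels of the osteoblast factors was not tested.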
